A study of Sus scrofa with 4 samples.

Results

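The nuclear-encoded genes of oxidative phosphorylation were followed in dissociated pig testis (Sus scrofa) across cell classes and across 4 ages. Members were all features whose symbol begins with NDUF, UQCR or ATP5, or with COX4, COX5, COX6, COX7 or COX8, together with SDHA to SDHD, CYC1 and CYCS. The rule found 72 of the 31908 features, of which 16508 carry a symbol. Testes of 7, 30, 60 and 90 days of age gave 1 library each, and the labels give no strain, number of animals or treatment. Age and library therefore cannot be told apart, no test between ages is possible, and every interval below is an exact 95% interval for counting error alone.

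Oxidative phosphorylation passes electrons from NADH and succinate through complexes I to IV of the inner mitochondrial membrane, and ATP synthase, or complex V, uses the resulting proton gradient. A small set of subunits is encoded by mitochondrial DNA and all others by nuclear genes. In the testis, Leydig cells begin steroid synthesis inside mitochondria, Sertoli cells are known for glycolysis and lactate output, and germ cells alter their fuel use as they mature. Several subunits have paralogues used in particular tissues: COX4I2 in lung and vessel walls, COX7A1 in muscle, and COX6B2 in testis.

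The members comprised 29 subunits of complex I, 3 of complex II, 6 of complex III, 9 of complex IV, 12 of ATP synthase, and CYCS, which codes for cytochrome c. These 60 genes are called the core set here. The other 12 were 6 NDUFAF assembly factors of complex I, the ATP synthase inhibitor ATP5IF1, the supercomplex factor COX7A2L, NDUFA4L2, and the isoforms COX4I2, COX6B2 and COX7A1. No feature carried the symbol COX8C, SDHA, ATP5F1B or COX6B1. A reference table gave a member's name to 7 features that have no such symbol in the files, among them SDHA, COX7B and NDUFS6, and these were kept out of the sums. NDUFS8, a complex I subunit, had 20 counts in all cells together and was not measurable.

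Cells were grouped by clustering that left out the members, and clusters were named from marker genes, so each class is called "like" its type. After filtering, 12313, 14895, 10841 and 11390 cells of the 7-, 30-, 60- and 90-day libraries were used, with a median of 2433 to 4994 counts per cell. At 60 days, 4711 cells lay in shallow clusters that could not be named. Leydig-like cells formed 1 cluster (cluster 7) at all ages, but only 70 were found at 60 days and that age is left out for them. Sertoli-like cells were mainly clusters 1 and 3 at 7 days, cluster 2 at 30 days and cluster 9 at 60 days. Cluster 25, from the 90-day library, scored highest for the Sertoli markers, but its 10 leading genes held none of the listed Sertoli markers, so it is given by number. Its SOX9 and CLDN11, transcription factor and junction protein of Sertoli cells, were at 400 and 1322 CPM against 249 and 924 CPM in the 7-day cells. WT1 was at 150 against 77.0 CPM, DMRT1 at 110 against 72.1 CPM and AARD at 43.4 against 1.83 CPM. Other Sertoli markers were lower in cluster 25. AMH, a hormone of immature Sertoli cells, was at 169 against 2505 CPM and INHA at 624 against 4141 CPM. INHBB was at 10.1 against 40.9 CPM, DHH at 30.2 against 57.5 CPM and FSHR at 44.9 against 56.5 CPM. Stromal-like cells were mainly cluster 4 at 7 days, cluster 17 at 30 days, cluster 19 at 60 days and cluster 23 at 90 days. Their ages are therefore also compared between clusters. At 7 and 90 days their DPT was 69.6 and 4.22 CPM, LUM 1933 and 1205 CPM, and TCF21 7.51 and 4.01 CPM. MFAP5 was 3.05 and 359 CPM, PDGFRA 290 and 540 CPM, COL1A1 4644 and 6538 CPM, and COL1A2 4661 and 8889 CPM. DCN was 4933 and 4839 CPM, and COL3A1 6012 and 5120 CPM. Cluster 18 (30 and 60 days) and cluster 24 (90 days) both led with ACTA2, the actin of smooth muscle, but cluster 18 also led with the stromal genes DCN and PDGFRA, so they are compared by number. Cluster 12, led by RGS5, ACTA2 and MYH11, which mark the cells of vessel walls, is also given by number. Expression is in CPM, the usual scaling of a gene's counts to a fixed total of the class. These are 3′ counts, so levels are compared for the same genes between classes and not between genes.

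Leydig-like cells and the pooled early germ clusters g0 and g1 held the highest summed counts of the core set at 7 and 30 days. Clusters g0 and g1 are given by number, since both scored for spermatogonia and spermatocyte markers and g1, with 307 of the 510 cells at 7 days, scored higher for the latter. At 7 days the sum was 22475 CPM (22344 to 22607) in Leydig-like and 18953 CPM (18866 to 19040) in g0 and g1 together. In the other 6 classes of that age it lay between 9899 CPM in stromal-like cells and 14524 CPM in cluster 12. Alone, g0 had 22536 CPM and g1 14326 CPM at 7 days, so g1 lay within the range of these classes. At 30 days g0 and g1 had 22396 and 13434 CPM. Leydig-like cells exceeded Sertoli-like cells 1.91 times at 7 days and 1.76 times at 30 days, and exceeded cluster 25 1.16 times at 90 days. Clusters g0 and g1 pooled exceeded the Sertoli-like cells 1.61, 1.78 and 1.84 times at 7, 30 and 60 days. The spermatogonia-like cluster g6 exceeded cluster 25 1.60 times at 90 days. The Leydig-like excess at 7 days was broad, since 57 of the 60 core genes lay above the median of the 8 classes and 36 lay at least 1.5 times above it. At 90 days, 30 of the 60 lay above the median of 13 classes and 9 lay 1.5 times above it. The classes at 90 days also hold spermatocyte-like, spermatid-like and unresolved germ cells, so the counts of both ages do not share a reference. The intervals do not include spread between animals.

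**Figure D1:**
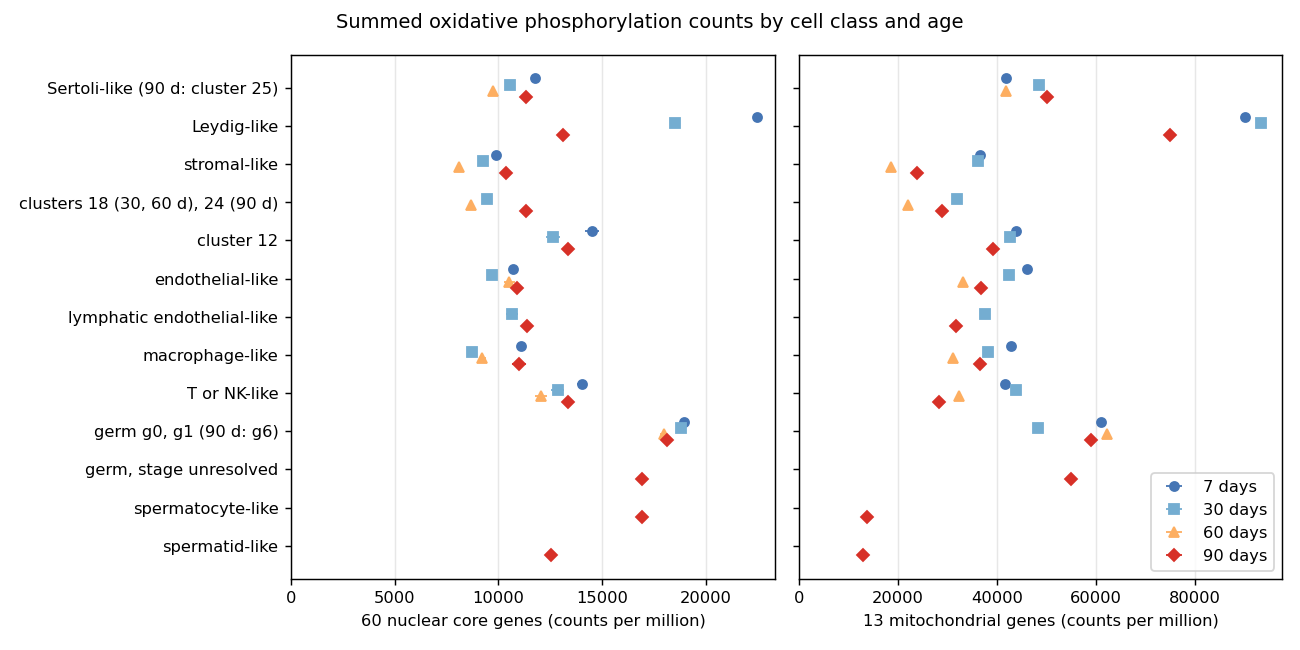
Summed counts of the 60 nuclear core genes (left) and the 13 mitochondrial genes (right), in CPM, by cell class; colour and symbol give the age and bars are exact 95% Poisson intervals, mostly narrower than the symbols. Leydig-like cells drop from 22475 at 7 days to 13130 at 90 days on the left, and spermatocyte-like and spermatid-like cells lie lowest on the right.

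In Leydig-like cells the core sum was 22475 CPM at 7 days, 18539 CPM at 30 days and 13130 CPM at 90 days. Its log2 ratio of 90 against 7 days was −0.78 (−0.80 to −0.75). The 13 mitochondrially encoded genes differed less, with 89991, 93262 and 74995 CPM and a log2 ratio of −0.26 (−0.27 to −0.25). Removal of cells above 15% mitochondrial UMIs caps this sum. The median share of mitochondrial UMIs per Leydig-like cell was 8.41%, 9.41% and 7.18% at 7, 30 and 90 days. A gene was counted as higher or lower when it had at least 100 counts in both ages together, differed at least 1.5-fold, and had an interval that left out no difference. Of 66 members measured, 39 were lower and 2 higher at 90 days. Of all 6174 genes measured in these cells, 15.2% were lower and 30.0% higher. The median log2 ratio was −0.68 for the members and 0.21 for all genes. At 30 against 7 days, 7 of 66 members were lower and none was higher, where 8.62% and 10.5% of all genes were.

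Each complex had lower members in Leydig-like cells. In complex I, 17 of 28 were lower, in complex II 2 of 3, in complex III 5 of 6, in complex IV 5 of 9 and in complex V 8 of 12, and no core gene was higher. NDUFB11, a membrane subunit of complex I, stood at 758, 479 and 213 CPM at 7, 30 and 90 days, against at most 149 CPM in any other named class at any age. UQCR10 of complex III stood at 900, 517 and 340 CPM, and COX6A1 of complex IV at 1503, 1218 and 646 CPM. ATP5F1C, the gamma subunit of the ATP synthase motor, stood at 1163, 936 and 410 CPM. All 4 genes were in order of age, highest at 7 days.

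ATP5IF1, whose protein blocks ATP hydrolysis by ATP synthase, was 1189 CPM (1159 to 1220) in Leydig-like cells at 7 days, 838 CPM at 30 days and 385 CPM at 90 days. In the other named classes it ranged from 106 to 434 CPM over all ages. Some core genes differed little between 7 and 90 days: COX4I1, the common form of subunit 4, was 879 CPM and 734 CPM, NDUFB4 491 CPM and 461 CPM, and COX7A2 486 CPM and 510 CPM. SDHB and SDHC of complex II had log2 ratios of −0.40 and −0.73.

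Other measures moved with age in the same cells. Median depth was 9427, 5283 and 3405 counts per Leydig-like cell at 7, 30 and 90 days. Of the Leydig markers, INSL3, a peptide hormone, stood at 44740, 45790 and 21756 CPM. STAR, which imports cholesterol into mitochondria, stood at 5038, 1799 and 1028 CPM, and CYP17A1, a steroid hydroxylase, at 12428, 15118 and 9164 CPM. CYP11A1 differed less, at 2625, 2556 and 2128 CPM, as did LHCGR, at 417, 336 and 355 CPM. CYP19A1 stood at 1251, 1227 and 209 CPM. Their part in the members' levels was not tested. With TMM scaling, which moved the median of all genes by −0.59 on the log2 scale, 60 members were lower and 2 higher, against 38.5% and 10.1% of all genes. At a 2-fold limit 19 were lower, against 8.41% of all genes.

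**Figure D2:**
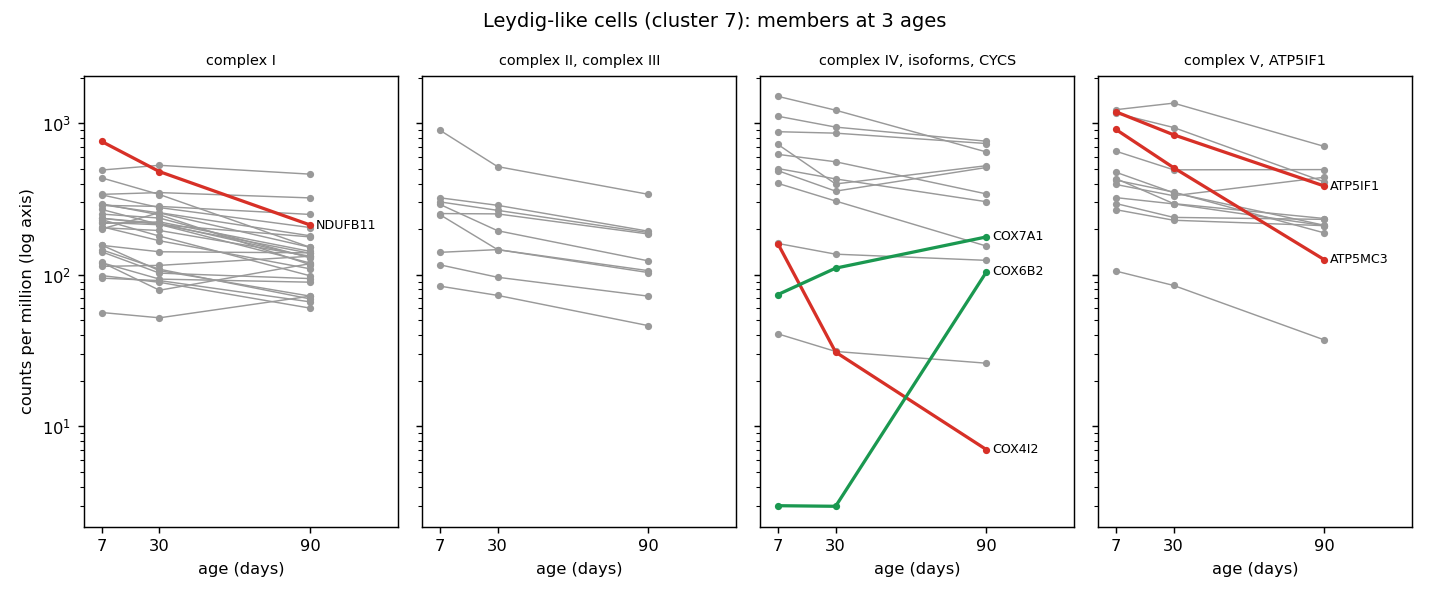
Members in Leydig-like cells in CPM (log axis) at 7, 30 and 90 days, 1 line per gene and 1 panel per group of complexes; red lines are COX4I2, NDUFB11, ATP5MC3 and ATP5IF1, and green lines the 2 members called higher. Most grey lines slope down, ATP5IF1 goes from 1189 to 385, and COX7A1 from 74.01 to 178.

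In the other somatic classes the core sum differed less between 90 and 7 days. Its log2 ratio was −0.05 in cluster 25 against the Sertoli-like cells, 0.07 in stromal-like, 0.03 in endothelial-like and −0.02 in macrophage-like cells, and 0.27 in cluster 24 at 90 days against cluster 18 at 30 days. Of 70 members measured in cluster 25 against the 7-day Sertoli-like cells, 7 were higher and 11 lower, where 34.0% and 22.6% of all genes were. Of 70 in stromal-like cells, 11 were higher and 3 lower, against 37.5% and 10.8% of all genes. Of 66 in cluster 24 against 18, 19 were higher and 4 lower, against 30.9% and 10.6%. Of 65 in endothelial-like cells, 10 were higher and 4 lower, against 21.9% and 12.3%. Of 62 in macrophage-like cells, 4 were higher and 6 lower, against 15.9% and 13.6%. Each of these shares of members was below that of all genes by CPM, which did not hold for the lower members with another scaling given below. In T or NK-like cells, which were set apart from the main comparisons, 8 of 60 were higher and 14 lower, against 27.4% and 20.4%.

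The split depended on the scaling. TMM factors moved the median of all genes by −0.45 in cluster 25 against Sertoli-like cells, −0.55 in stromal-like, −0.51 in cluster 24 against 18, −0.30 in endothelial-like and −0.48 in macrophage-like cells on the log2 scale. The counts of higher and lower members were then 3 and 34, 6 and 31, 5 and 12, 6 and 15, and 2 and 30 in the same order, where 38.1%, 28.8%, 28.9%, 25.3% and 33.2% of all genes were lower. On that scale the share of lower members was above that of all genes in cluster 25, stromal-like and macrophage-like cells, the opposite of the order by CPM, and below it in cluster 24 and endothelial-like cells. In stromal-like cells a total without mitochondrial and ribosomal protein genes gave 9 and 8. The median member lay below the median gene in these 5 comparisons, at −0.11 against 0.17 in cluster 25 against Sertoli-like cells and at 0.07 against 0.35 in stromal-like cells. Whether the Leydig-like difference exceeds that of the other classes was not tested, because each class has 1 library per age.

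By complex, cluster 25 had 5 lower and 1 higher of 12 ATP synthase subunits against the 7-day Sertoli-like cells, 3 lower and 3 higher of 28 in complex I, 1 lower of 3 in complex II, none of 6 in complex III, and 1 lower and 1 higher of 9 in complex IV. These counts stand against the 22.6% of all genes that were lower and the 34.0% that were higher. ATP5F1C was 429, 267, 212 and 203 CPM in order of age, and ATP5F1D, the delta subunit of the rotor, had a log2 ratio of −1.39. COX4I1 and the complex I subunits NDUFA2, NDUFA6 and NDUFS1 were higher, by 0.60, 0.94, 1.13 and 0.87 on the log2 scale. In macrophage-like cells the complex I subunits NDUFB11 and NDUFA13 were lower, with log2 ratios of −1.36 and −1.16.

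Against the 60-day library, the 90-day library had more higher than lower members in all classes compared except the early germ cells. All genes tilted the same way in these classes, apart from macrophage-like cells. The share of higher members was below that of all genes in cluster 25, T or NK-like and endothelial-like cells. Between 60 and 90 days, 11 of 69 members were higher and 0 lower in cluster 25 against Sertoli-like cells (26.4% and 18.1% of all genes). The counts were 18 and 1 of 68 in stromal-like cells (21.1% and 9.67%), and 19 and 2 of 65 in cluster 24 against 18 (22.4% and 14.8%). In T or NK-like cells 11 of 57 were higher and 2 lower (24% and 15.4%), and in macrophage-like cells 6 and 2 of 51 (10.1% and 13.7%). In endothelial-like cells 4 of 65 were higher and 1 lower (13.7% and 7.67%), and in g6 against g0 and g1 4 and 4 of 68 (10.1% and 15.7%). Stromal-like cells and cluster 24 led with NDUFA11, NDUFA6, ATP5ME, COX7A2 and COX6B2. Macrophage-like cells were also apart at 30 against 7 days, with 13 of 63 members lower and 1 higher, against 14.1% and 7.66% of all genes.

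**Figure D3:**
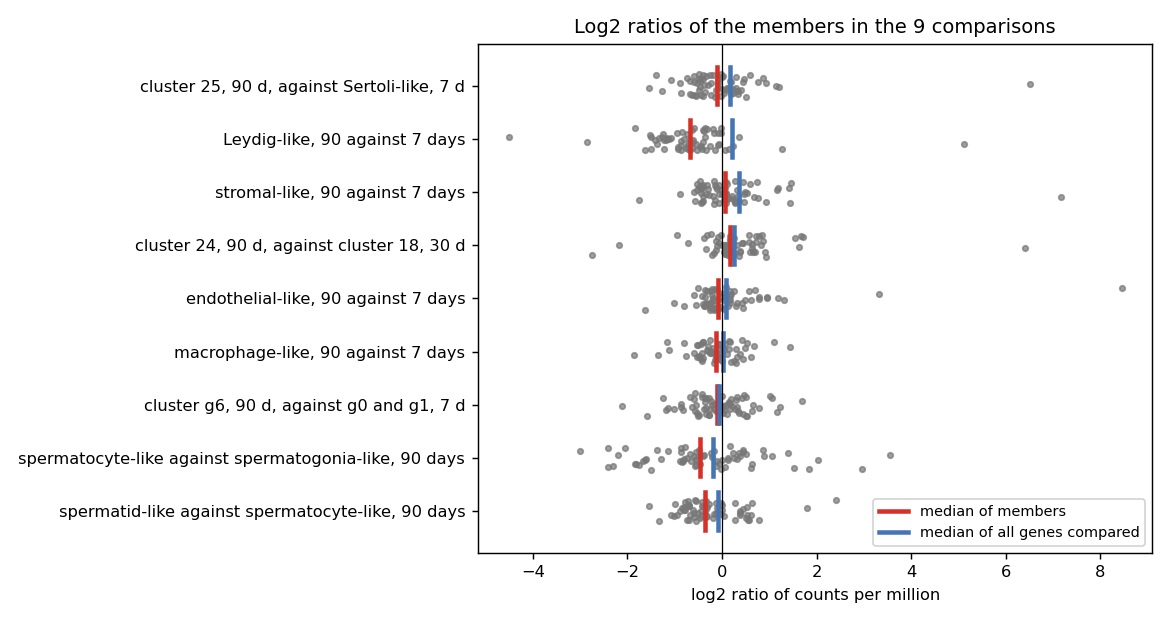
Log2 ratios of CPM for every measured member (grey points, vertical scatter for display) in the 9 comparisons; the red bar is the members' median and the blue bar the median of all genes compared. The red bar lies furthest left in Leydig-like cells at −0.68, where the blue bar is at 0.21, and the single point furthest right in each of the upper 5 rows is COX6B2.

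Besides COX6B2, 7 members were found that were called in the same direction in at least 4 of the 7 age comparisons and in the other direction in none. All 7 comparisons use the 90-day library, and all but cluster 24 against 18 use the 7-day library, so they are not independent. ATP5MC3, 1 of 3 genes that encode the c ring of ATP synthase, was lower in all 7 age comparisons, with log2 ratios from −2.86 in Leydig-like cells to −0.95 in cluster 24 against 18. It was 267, 195 and 109 CPM in Sertoli-like cells at 7, 30 and 60 days and 91.1 CPM in cluster 25 at 90 days, and 321, 285 and 170 CPM in clusters g0 and g1 and 107 CPM in g6. Stromal-like, endothelial-like, macrophage-like and T or NK-like cells had the same order of ages. The other c ring genes were less even: ATP5MC1 was lower in 2 of 7 comparisons, and in cluster 25 against Sertoli-like cells its log2 ratio was −0.87. The 3 genes encode the same mature peptide, and reads shared between them could not be resolved here.

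ATP5ME, the e subunit at the base of ATP synthase, was higher in 6 of 7 age comparisons and had a log2 ratio of 0.16 in Leydig-like cells. In Sertoli-like cells it stood at 182, 171 and 228 CPM at 7, 30 and 60 days and in cluster 25 at 418 CPM, and in g0 and g1 at 358, 360 and 462 CPM and in g6 at 807 CPM. NDUFA11 and NDUFA6, accessory subunits of complex I, were each higher in 5 of 7. NDUFA11 was 62.3 CPM in stromal-like cells at 7 days and 166 CPM at 90 days, and NDUFA6 was 41.4 and 93.5 CPM. NDUFAB1, the acyl carrier protein held in complex I, was lower in 4 of 7, and COX7A1 was higher in 4 of 7. COX7A2, described below with COX6B2, was higher in 5 of 7. How many of all genes were called in as many comparisons was not computed.

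COX4I2 marked the stromal and vessel wall cells. It was 788 CPM (714 to 867) in cluster 12 at 7 days, 753 CPM at 30 days and 548 CPM at 90 days, or 42.4%, 40.7% and 33.1% of the counts of COX4I2 and COX4I1 together. In stromal-like cells it was 311, 408, 202 and 224 CPM at the 4 ages. Sertoli-like cells and cluster 25 had 1.48 to 3.55 CPM. The common form COX4I1 lay between 611 and 1142 CPM in all named classes, a far narrower range.

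With age COX4I2 went different ways. In Leydig-like cells it was 161 CPM (150 to 172), 30.9 CPM and 7.03 CPM (2.83 to 14.5) at 7, 30 and 90 days, a log2 ratio of −4.52 (−5.83 to −3.47). Cluster 18 had 198 CPM at 30 days and 116 CPM at 60 days, and cluster 24 had 29.7 CPM (21.5 to 39.9) at 90 days. Endothelial-like cells went the other way, from 5.50 CPM (3.08 to 9.08) at 7 days over 25.7 and 66.8 CPM to 55.0 CPM (46.3 to 64.8) at 90 days, a log2 ratio of 3.32. Markers of endothelial cells moved unevenly over the same ages. CLDN5, a tight junction protein, was 2629, 2659, 915 and 1083 CPM. EGFL7 was 934, 893, 337 and 493 CPM, and PECAM1 1163, 962, 424 and 788 CPM. At 7 and 90 days KDR was 247 and 167 CPM, ESAM 324 and 226 CPM, CDH5 207 and 181 CPM, and VWF 662 and 647 CPM. TEK, at 111 and 136 CPM, and FLT1, at 199 and 270 CPM, were higher at 90 days. Of the listed markers, 9 of 9 had counts at every age. Their part in the result was not tested. NDUFA4L2, a paralogue of NDUFA4 that is induced by low oxygen in other tissues, stood beside it in endothelial-like cells at 3.30, 17.5, 43.6 and 32.8 CPM. In cluster 12, NDUFA4L2 was 273, 340 and 331 CPM at 7, 30 and 90 days, and outside cluster 12, endothelial-like and late germ cells it did not exceed 5.28 CPM.

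COX7A1, the muscle form of subunit 7A, was 74.01 CPM (66.7 to 81.9), 111 CPM and 178 CPM (153 to 206) in Leydig-like cells, the only member higher there besides COX6B2. It was also higher in endothelial-like cells (32.6 CPM at 7 days and 63.2 CPM at 90 days), in cluster 24 against 18 (41.0 and 72.4 CPM) and in the 90-day germ cluster g6. Cluster 12 had 150, 86.6 and 119 CPM at 7, 30 and 90 days. T or NK-like cells had 3.35 to 39.6 CPM and clusters g0, g1 and g6 7.35 to 23.7 CPM. The muscle form COX6A2 showed no such class, with 16.0 to 67.0 CPM over all named classes and ages.

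CYCS, which encodes the electron carrier cytochrome c, was highest in cluster 12, cluster 18, stromal-like and endothelial-like cells at 30 days. Cluster 12 had 805, 1121 and 468 CPM at 7, 30 and 90 days, cluster 18 had 792 CPM at 30 days and 444 CPM at 60 days, and cluster 24 had 174 CPM at 90 days. Stromal-like cells had 269, 635, 305 and 177 CPM and endothelial-like cells 474, 722, 276 and 236 CPM. In Sertoli-like cells and cluster 25 CYCS lay between 108 and 154 CPM, and in Leydig-like cells between 124.5 and 161 CPM. In cluster 12, stromal-like and endothelial-like cells CYCS was thus highest at 30 days. Sertoli-like cells had 108, 130 and 109 CPM at 7, 30 and 60 days, a smaller 30-day maximum, and cluster 25 had 154 CPM at 90 days. Clusters g0 and g1 pooled had 346, 380 and 301 CPM at 7, 30 and 60 days, and g6 had 353 CPM at 90 days. Leydig-like cells were highest at 7 days, with 161 CPM.

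**Figure D4:**
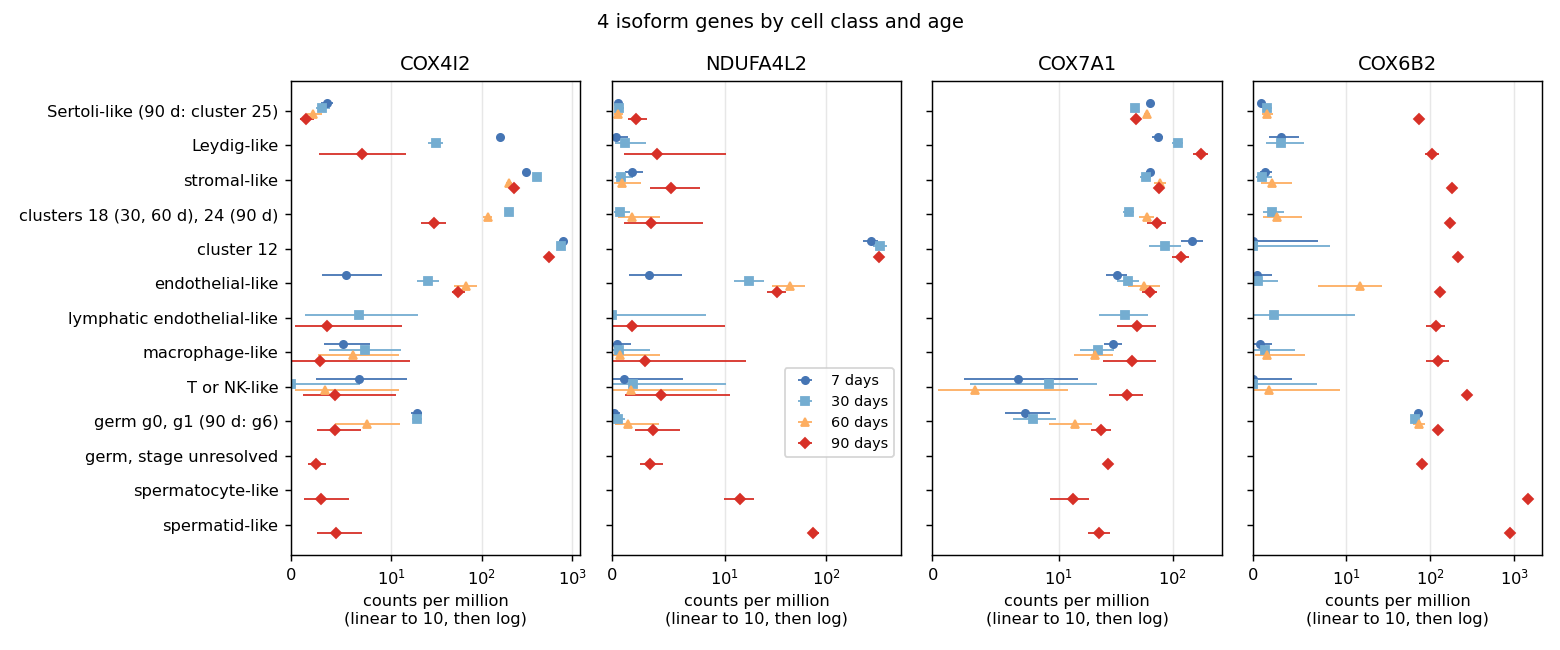
Levels in CPM of COX4I2, NDUFA4L2, COX7A1 and COX6B2 by cell class (axis linear to 10 and logarithmic above), coloured by age, with exact 95% Poisson intervals. COX4I2 and NDUFA4L2 are highest in cluster 12 (788 and 340 at most), COX7A1 reaches 178 in Leydig-like cells, and COX6B2 reaches 1431 in spermatocyte-like cells.

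COX6B2 was the isoform of late germ cells. At 90 days it was 1431 CPM (1387 to 1477) in spermatocyte-like cells, 882 CPM (853 to 912) in spermatid-like cells and 122 CPM in spermatogonia-like cells, with 64.8 to 73.6 CPM in clusters g0 and g1 at the 3 younger ages. In named somatic classes it was at most 14.5 CPM at 7 to 60 days and 72.6 to 274 CPM at 90 days. The sum of 12 spermatid markers in those classes moved with it and was 4.25 to 24.2 CPM at 7 to 60 days and 1466 to 5194 CPM at 90 days, with 32035 CPM in spermatid-like cells. Before 90 days the protamine PRM1 was at 0 in all those classes except Sertoli-like and macrophage-like cells at 60 days, and at 90 days every named somatic class had counts of at least 11 of the 12 markers. For each 1000 counts of the transition protein and protamine genes TNP1, TNP2, PRM1 and PRM2, the 9 somatic classes had 53.5 to 74.6 counts of COX6B2, while spermatocyte-like cells had 815 and spermatid-like cells 32.2. The somatic ratios thus lay between those of spermatid-like and spermatocyte-like cells and in a narrow range.

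COX7A2, the common form of subunit 7A, followed COX6B2 in germ cells. It was 3646 CPM (3575 to 3719) in spermatocyte-like and 2225 CPM in spermatid-like cells, against 894 CPM in spermatogonia-like cells at 90 days. It was higher in 5 of 7 age comparisons, and in the named somatic classes it ranged from 160 to 486 CPM at 7 to 60 days and from 433 to 1069 CPM at 90 days. The highest somatic value, in T or NK-like cells, was in the named class with the highest sum of spermatid markers. Without COX6B2 and COX7A2, 6, 9, 17, 8 and 3 members were higher in the 5 somatic comparisons above, in the same order, and 1 in Leydig-like cells. The part of free germ cell RNA in the COX7A2 values was not tested.

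Early germ cells had core sums close to each other, with 18953, 18816 and 17972 CPM in g0 and g1 together at 7, 30 and 60 days and 18155 CPM in g6, the spermatogonia-like cluster of 90 days. At 7 and 30 days g0 had 22536 and 22396 CPM, and g1 14326 and 13434 CPM. The age comparison is therefore one between clusters. Of 70 members, 8 were higher and 12 lower at 90 days, where 20.1% of all genes were higher and 27.6% lower. With TMM scaling, which moved the median gene by 0.16, 14 were higher and 9 lower, against 26.4% and 22.7% of all genes, so all genes turned the same way. NDUFA8, a complex I subunit, was 662 CPM at 7 days and 292 CPM at 90 days, and the assembly factor NDUFAF6 was 109 and 45.6 CPM. Of the spermatogonia markers at 7 and 90 days, GFRA1 was 29.5 and 8.05 CPM and PIWIL4 85.8 and 14.4 CPM. ID4 was 63.1 and 31.2 CPM, DDX4 184 and 135 CPM, and ZBTB16 93.4 and 86.1 CPM. UCHL1, at 405 and 928 CPM, and NANOS3, at 25.05 and 110 CPM, were higher at 90 days. STRA8 was 6.52 and 6.58 CPM, and NANOS2 had 1 count at 7 days and 0 at 90 days. The part of these different cells in the members' ratios was not tested.

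From spermatogonia-like to spermatocyte-like cells at 90 days, mitochondrially encoded and nuclear counts parted. The core sum was 18155 CPM (18025 to 18286) and 16922 CPM (16767 to 17077), a log2 ratio of −0.10. COX7A2 was the largest gene of that sum in spermatocyte-like cells, and the median core gene was at 226 and 185 CPM. The members' median log2 ratio was −0.47, against −0.18 for all genes. With a total that left out mitochondrial and ribosomal protein genes, the core sum was 23451 and 18234 CPM. With TMM factors the core sum had a log2 ratio of 0.058. The 13 mitochondrial genes summed to 58981 CPM and 13864 CPM, a log2 ratio of −2.09. Nuclear core counts per mitochondrial count were 0.31 in spermatogonia-like cells, 1.22 in spermatocyte-like cells and 0.96 in spermatid-like cells, against 0.18 to 0.47 in the somatic classes of all ages. All 12 mitochondrial genes measured were lower: COX1 went from 12357 to 2992 CPM, COX3 from 15868 to 3840 CPM and ND4 from 3508 to 784 CPM.

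This difference lay in 1 of the 2 spermatocyte-like clusters. Cluster g12, with 406 cells, had 8088 CPM of mitochondrial and 17610 CPM of core counts, or 2.18 core counts per mitochondrial count. Cluster g9, with 200 shallower cells, had 50972 and 12501 CPM, or 0.25. The spermatid-like clusters g10, g11, g13 and g14 had 0.75 to 1.7. Of the 606 spermatocyte-like cells, 355 had counts of at least 2 listed spermatocyte markers. The 12 spermatid markers summed to 4625 CPM in spermatocyte-like cells, against 1157 CPM in spermatogonia-like and 32035 CPM in spermatid-like cells. Median depth was 9578 counts in spermatogonia-like, 1680 in spermatocyte-like and 1426 in spermatid-like cells, and ribosomal protein genes made up 16.7%, 5.81% and 6.64% of their counts. The part of depth and RNA quality in these levels was not tested.

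**Figure D5:**
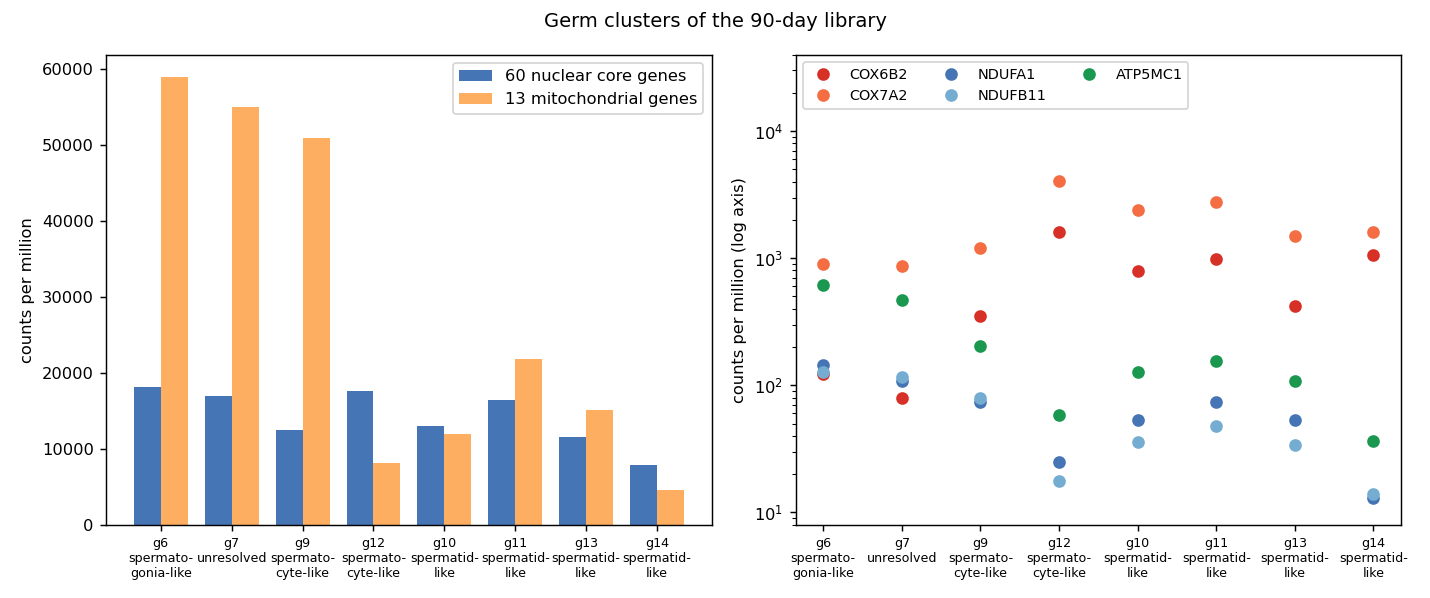
Germ clusters of the 90-day library: left, bars of the summed CPM of 60 nuclear core genes and 13 mitochondrial genes; right, CPM (log axis) of 5 members. Mitochondrial bars drop from 50972 in g9 to 8088 in g12 while the nuclear bars are 12501 and 17610, and COX7A2 and COX6B2 are highest in g12 where NDUFA1, NDUFB11 and ATP5MC1 are low.

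Nuclear members were found in both directions in spermatocyte-like cells, as all genes were. Of 68 measured against spermatogonia-like cells, 11 were higher and 27 lower, where 33.3% of all genes were higher and 40.4% lower. Beside COX6B2 and COX7A2, the assembly factors NDUFAF5 (16.6 and 128 CPM, log2 ratio 2.95) and NDUFAF3 (79.5 and 284 CPM, 1.84) were higher, and NDUFAF4 was lower (68.5 and 12.9 CPM, −2.41). Both ATP5MC1 (619 and 77.5 CPM, −3.00) and ATP5MC2 (409 and 77.1 CPM, −2.41), c ring genes, were lower. In complex II, SDHC and SDHD were lower, at −1.50 and −1.82, and SDHB was not called. CYCS was 353 and 114 CPM and CYC1, which encodes cytochrome c1, had a log2 ratio of −1.68. With cluster g12 alone as the spermatocyte-like cells, 11 members were higher and 29 lower.

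Both members with a known position on chromosome X were among the lower genes. NDUFA1 (X, 98219717 to 98223873, RefSeq on Sscrofa11.1, the files' build) was 144 CPM in spermatogonia-like and 31.4 CPM in spermatocyte-like cells, a log2 ratio of −2.19. NDUFB11 (X, 41770929 to 41773879) was 127 and 25.8 CPM, a log2 ratio of −2.30. In g12 alone they were 24.7 and 17.5 CPM, in g9 73.99 and 79.5 CPM, and in spermatid-like cells 48.9 and 33.7 CPM. Only 47 of the 72 members matched a RefSeq position by symbol, too few to compare X-linked with autosomal members as groups.

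Spermatid-like cells had a core sum of 12539 CPM (12427 to 12652), a log2 ratio of −0.43 against spermatocyte-like cells. Of 67 members, 5 were higher and 21 lower, against 33.6% and 34.4% of all genes. The count of higher members was 13 with 2 markers required per cell or with cluster g12 only and 2 at resolution 2, and the count of lower members was 7 by the mean over cells. In complex I, 11 of 28 were lower and 1 higher. NDUFAF3 was 97.3 CPM against 284 CPM, NDUFAF5 51.3 against 128 CPM, and UQCRQ of complex III 92.8 against 195 CPM. NDUFA4L2 was higher, at 74.8 CPM (66.4 to 84.0) against 14.03 CPM, and it was concentrated in cluster g10, with 161 CPM there and 9.72 to 23.5 CPM in the other 3 spermatid-like clusters. NDUFA1, 0.64 on the log2 scale, was −0.042, −0.23 and −0.10 without doublet removal, with the stricter cell filter and at resolution 2. SDHC went the same way, to −0.49, −0.54 and −0.17 with those settings.

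Pathway lists gave the setting of these values. The list for the tricarboxylic acid cycle also held pyruvate dehydrogenase, and its genes are called cycle genes here. Of 17 cycle genes measured in spermatocyte-like against spermatogonia-like cells, 12 were lower and none higher. Among the lower were CS, citrate synthase, at −2.37, and DLAT, a pyruvate dehydrogenase subunit, at −1.98. Of all genes, 33.3% were higher and 40.4% lower there. Of 17 glycolysis genes, 9 were higher and 6 lower. Of 36 other assembly factors of the respiratory chain, 20 were lower and 7 higher. Of 9 regulators of mitochondrial biogenesis, 5 were lower and 1 higher, and TFAM, which packages mitochondrial DNA, had a log2 ratio of −1.31. In Leydig-like cells at 90 against 7 days, 5 of 17 cycle genes were lower and 1 higher, 5 of 11 glycolysis genes were lower and 1 higher, and 7 of 32 other assembly factors were lower and 2 higher, where 15.2% of all genes were lower and 30.0% higher. The median log2 ratio there was −0.19 for the cycle genes and −0.68 for the members.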

How the data were processed

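The authors deposited raw UMI counts per gene and barcode, not normalized; Cell Ranger 5.0.1 made them, per the file headers, and the submitters' processing notes name bcl2fastq, Scanpy 1.7.1 and build Sscrofa11.1. Against 86453 cells captured per the labels, 69602 barcodes were deposited; 78 to 115 barcodes were shared by any pair of libraries. Total counts were 96133720, 77992845, 45717373 and 64372068 at 7, 30, 60 and 90 days. Cells needed at least 1000 UMIs, 500 genes and at most 15% mitochondrial UMIs. Scrublet's automatic threshold called 0 doublets at 60 days, so the highest scores were removed at an expected 0.8% per 1000 barcodes in every library. Cells were clustered without members and mitochondrial genes (2000 variable genes, 30 components, 15 neighbours, Leiden resolution 1, Scanpy 1.11.5, igraph 0.11.9) and named from at least 3 markers; the doublet rule, naming thresholds and germ stage rules were set after seeing the data. Counts were summed per class and library with at least 100 cells, without replicates and so without a test. CPM carries exact Poisson and ratios exact conditional binomial 95% intervals, shares exact Clopper-Pearson ones, for counting error only. Interval coverage was checked on simulated counts. Named were the isoforms and their paralogues, complex II, CYC1, CYCS, single core subunits and ATP5IF1, and per comparison the 4 highest and 4 lowest members by the interval bound nearest to no difference; where a comparison names others, and NDUFA1 throughout, they were chosen after their values were seen. The members and lists were chosen with earlier results of these data known. Alternatives were TMM factors (edgeR 4.0.16, R 4.3.3), other totals, filters, folds, clusterings, a gate of 2 markers per cell, means over cells and subtraction of 10% free RNA.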

Additional observations from a re-analysis of the deposited data

Results flagged for a closer look

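In 4 members the 90-day library lay above the 7-day library in 1 cell class or set of clusters and below it in another by at least 1.5-fold. The share of all genes that did so was not computed, so this count has no background to be read against. The difference between the classes was not tested. The isoform COX4I2 had a log2 ratio of −4.52 in Leydig-like and 3.32 in endothelial-like cells. NDUFAF6, an assembly factor of complex I, had −1.25 in cluster g6 against g0 and g1 and 0.93 in stromal-like cells. The complex I subunit NDUFB2 had −0.72 in Leydig-like and 0.78 in endothelial-like cells. NDUFS3, a core subunit of complex I, had −1.23 in Leydig-like and 0.73 in stromal-like cells.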

How the results depend on the processing

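No paired analysis was possible because each age is 1 library. Of 212 alternative counts of higher or lower members, 168 lay within 1.5 times of the main count. With TMM factors from edgeR the counts of higher and lower members were 3 and 34 in cluster 25 against Sertoli-like, 6 and 31 in stromal-like, 5 and 12 in cluster 24 against 18, 6 and 15 in endothelial-like and 2 and 30 in macrophage-like cells, 60 were lower in Leydig-like and 14 higher in g6 against g0 and g1. At a 2-fold limit they were 3 and 4 in cluster 25 against Sertoli-like, 6 and 1 in stromal-like, 5 and 2 in cluster 24 against 18, 4 and 2 in endothelial-like, 5 and 6 in g6 against g0 and g1, 7 and 16 in spermatocyte-like and 2 and 4 in spermatid-like cells, with 19 lower in Leydig-like and 2 higher in macrophage-like cells. In stromal-like cells 8 were lower with a total without mitochondrial and ribosomal protein genes and 1 without doublet removal. In macrophage-like cells 7 were higher with a minimum of 10 counts and 2 with the stricter cell filter. In g6 against g0 and g1 13 were higher by the mean over cells. In Leydig-like cells 1 was higher after subtraction of 10% free RNA or, chosen after seeing the data, without COX6B2 and COX7A2. The spermatid-like comparison was the least stable: 3 were higher without doublet removal, 3 with the stricter filter, 2 at resolution 2, 10 from separate clustering of each library, 13 with 2 markers per cell, 3 by the mean over cells (with 7 lower), 10 after free RNA subtraction and 13 with cluster g12 only, a choice made after seeing the data.

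Signs turned as follows, and except for fewer or other cells and the scale itself the cause was not tested. With TMM factors, in cluster 25 against Sertoli-like cells the mitochondrial sum had a log2 ratio of −0.19, COX7A2 −0.15 and SDHC −0.15; ATP5ME in Leydig-like cells had −0.43; in stromal-like cells the core sum had −0.49, COX7A1 −0.27 and SDHB −0.27; the core sum had −0.24 in cluster 24 against 18 and −0.27 in endothelial-like cells; NDUFB4 had −0.0018 in macrophage-like cells. In g6 against g0 and g1 the core and mitochondrial sums had 0.10 and 0.11 with TMM factors, 0.0083 and 0.022 with the total without mitochondrial and ribosomal protein genes, and 0.036 and 0.087 by the mean over cells. The core sum had −0.052 in stromal-like cells with that total, −0.017 in endothelial-like cells with the stricter filter, and 0.058 in spermatocyte-like cells with TMM factors. The mitochondrial sum had 0.20 in cluster 24 against 18 without doublet removal, and in spermatid-like cells 0.31 from separate clustering of each library, 0.12 with 2 markers per cell and 0.69 with cluster g12 only. NDUFA1 in spermatid-like cells had −0.042 without doublet removal, −0.23 with the stricter filter and −0.10 at resolution 2, and SDHC had −0.49, −0.54 and −0.17. Without doublet removal only 7 spermatogonia-like cells remained at 90 days, so both comparisons that use them were not run there. With 20 counts in all cells, NDUFS8 could not be compared at this depth, nor could NDUFA4L2 in the age comparisons of the somatic classes, with under 100 counts each.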
